A study of Mus musculus with 3 samples.

Results

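The mitochondrial ribosomal protein genes of the mouse were taken as every protein-coding gene record on chromosomes 1 to 19 and X whose symbol starts with Mrpl or Mrps and a digit. The rule found 78 of 21631 records, 49 with an Mrpl and 29 with an Mrps name, spread over 17 chromosomes, with 11 on chromosome 11 and none on chromosomes 12, 18 or X. Acetylation of histone H3 at lysine 9 (H3K9ac) was mapped by CUT&Tag, in which an antibody guides a transposase to the marked chromatin so that it cuts and tags the DNA there. The cells were haematopoietic stem cells (HSCs) sorted from bone marrow of wild-type mice, 50000 per assay, with 1 library in each of 3 groups. The groups were young HSC (2 to 4 months of age, read from the y of the title), old HSC (18 to 24 months, from the o) and old HSC ABC, old cells with a further label that the sources used here do not spell out. The sorting markers, the number of animals pooled and what ABC was given as are likewise not given in the sources used here. No difference between libraries has a replicate check. For that reason the text holds no tests.

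The names written inside the peak lists did not match the sample labels. Inside the young-labelled list stands oHSC-H3K9ac-1, inside the old-labelled one oHSC-ABC-H3K9ac-1, and inside the ABC-labelled one oHSC-H3K9ac-2. Which is right could not be settled, so each library is called by its label and every direction below holds for the labels only. The lists held 33248 (young), 108787 (old) and 45386 (ABC) summits, each with a score from the authors' peak calling that is read as a −log10 q-value. Read depth is unknown, and scores rank summits within their own list only. Of 14 HSC markers 13 had a summit in or within 1 kb of their record in each library, Slamf1 being without one in the young-labelled list and Hoxb5 in the other pair. In the order young, old, ABC, which also holds for every set of 3 values below, erythroid markers had 1, 3 and 2 of 6, B cell markers 1, 4 and 1 of 5, and T and NK cell markers 2, 4 and 3 of 6. Megakaryocyte markers had 2, 5 and 3 of 5, and stroma and endothelium markers 2, 5 and 2 of 5. The globin genes Hba-a1 and Hbb-bt had none in any list. Granulocyte and monocyte markers had 6, 7 and 6 of 8, with best scores that differed widely. S100a8, a granulocyte calprotectin gene, had 65.0, 508 and 23.2, S100a9 70.3, 414 and 15.9, and Lyz2 16.1, 87.5 and 3.33. Mpo had 21.9, 25 and 16.6, Itgam 4.03, 15.5 and 3.6, and Csf1r 4.73, 18.9 and 3.21. Elane had a summit in the old-labelled list alone (8.57), and Ly6g had none. Over all 21631 protein-coding records, 58.9%, 74.6% and 62.9% had a summit by this rule. The part of other cells in the results below was not tested.

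Mitochondria keep their own ribosome, which translates the few proteins encoded by mitochondrial DNA, all of them membrane subunits of the respiratory chain and ATP synthase. Its RNAs come from the mitochondrial genome, whereas every protein of its large and small subunits is encoded in the nucleus, made in the cytosol and imported. HSCs are known to rest largely on glycolysis and to depend on mitochondrial activity when they leave quiescence. H3K9ac sits on nucleosomes beside the starts of active genes, so a summit near a start site describes the chromatin there and not the amount of protein.

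Promoter entries give the start sites from which summit positions are measured below. RefSeq promoter entries on the build of the files (GRCm38.p6, the coordinates of mm10) were matched by gene ID for 69 of the 78 genes, and Mrpl4, Mrpl13, Mrpl15, Mrpl19, Mrpl38, Mrpl54, Mrps28, Mrps34 and Mrps35 were without one. Of the 69 genes 24 had a start site within 1 kb of the start of another protein-coding gene on the opposite strand, pointing away from it (divergent pairs), which is 34.8%. The same held for 1483 of 17274 genes with a promoter entry, or 8.59%. The 23 pairs had a median distance of 141 bp between the starts (32 to 935). The stretches between the starts of 4 such pairs are given first, because the best summit of the member fell in the window of both genes in each library there. They were chosen after their values were seen, as were the next 4. Mrps11 with Mrpl46 is the only pair in which both genes are members. Mrpl32 with the proteasome gene Psma2 and Mrpl50 with Zfp189 are among the strongest, and Mrpl40 with the histone chaperone gene Hira is among the weakest. All are from GRCm38.p6, written 5′ to 3′ on the strand of the member and ending at the base before its start. Capitals mark a match to 1 of the 5 motifs named further on. Only Mrpl50, in the young- and ABC-labelled lists, had its best summit inside the stretch printed here or in the next paragraph.
Mrps11 and Mrpl46 (chr7:78783090-78783130, + strand): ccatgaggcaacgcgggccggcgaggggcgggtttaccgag
Mrpl32 and Psma2 (chr13:14613038-14613241, − strand): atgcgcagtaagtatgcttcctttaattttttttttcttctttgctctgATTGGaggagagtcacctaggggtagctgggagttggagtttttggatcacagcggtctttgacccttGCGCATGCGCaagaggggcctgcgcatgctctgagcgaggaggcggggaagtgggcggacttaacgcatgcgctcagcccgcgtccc
Mrpl50 and Zfp189 (chr4:49521084-49521175, − strand): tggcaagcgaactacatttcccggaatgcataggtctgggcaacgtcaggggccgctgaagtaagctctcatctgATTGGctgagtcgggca
Mrpl40 and Hira (chr16:18876638-18876749, − strand): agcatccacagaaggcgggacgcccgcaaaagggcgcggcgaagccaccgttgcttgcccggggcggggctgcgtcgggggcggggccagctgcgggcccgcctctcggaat

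A further 4 members have no divergent partner in the table, and the 150 bases before their starts are given. Mrps9 had one of the strongest summits of the family and Mrpl52 the lowest scores in the young- and ABC-labelled lists, while Mrps22 and Mrpl39 carry an ETS and an NRF1 match before the start.
Mrps9 (chr1:42851083-42851232, + strand): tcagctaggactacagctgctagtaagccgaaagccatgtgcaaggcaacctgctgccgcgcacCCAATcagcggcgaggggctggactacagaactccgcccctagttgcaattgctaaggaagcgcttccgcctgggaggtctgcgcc
Mrps22 (chr9:98601680-98601829, − strand): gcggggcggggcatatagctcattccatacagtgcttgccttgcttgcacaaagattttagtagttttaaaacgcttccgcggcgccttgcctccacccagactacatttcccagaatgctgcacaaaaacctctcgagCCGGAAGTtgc
Mrpl39 (chr16:84735245-84735394, − strand): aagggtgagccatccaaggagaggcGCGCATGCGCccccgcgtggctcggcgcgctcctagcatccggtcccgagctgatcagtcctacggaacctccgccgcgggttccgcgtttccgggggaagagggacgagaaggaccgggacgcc
Mrpl52 (chr14:54426759-54426908, + strand): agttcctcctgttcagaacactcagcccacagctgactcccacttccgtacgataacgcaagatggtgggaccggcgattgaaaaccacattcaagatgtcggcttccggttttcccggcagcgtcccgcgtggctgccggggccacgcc

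Nearly the whole family carried the mark in all 3 libraries. A gene counted as marked when a summit lay inside its record or within 1 kb of either end. By that rule 77 of 78 members were marked in the young-labelled library (98.7%, exact 95% Clopper-Pearson interval 93.1 to 100), 78 in the old-labelled library (95.4 to 100) and 75 in the ABC-labelled library (96.2%, 89.2 to 99.2). Among all 21631 records the shares were 58.9%, 74.6% and 62.9%. These intervals cover counting over genes only. In all 3 libraries together 75 members and 55.1% of all records were marked. Members were shorter than other genes, with a median record length of 7690.5 bp against 17329 bp, so the median member offered a smaller target. Counting only summits within 1 kb of a record end, 71, 73 and 68 members were marked, against 42.4%, 57.6% and 44.1% of all records, and 66 against 36.8% in all 3 libraries. Summits with a score of at least 10 marked 53, 77 and 48 members, against 26.9%, 51.2% and 23.8% of all records, and 45 against 19.8% in all 3.

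Many of these summits lay at a neighbouring gene as well. The best summit of a member, meaning the one with the highest score, fell in the window of another protein-coding record for 36 of 77, 35 of 78 and 32 of 75 members. Over all marked genes the shares were 21.2%, 20.1% and 19.9%. With only those summits kept that belong to 1 record, 48, 53 and 48 members were marked, against 50.6%, 67.7% and 55.3% of all records, and 45 against 46.5% in all 3. For the old-labelled list this share of members (67.9%) was thus close to that of all records, and the count of marked members above rests in part on summits that cannot be assigned to the member alone.

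**Figure D1:**
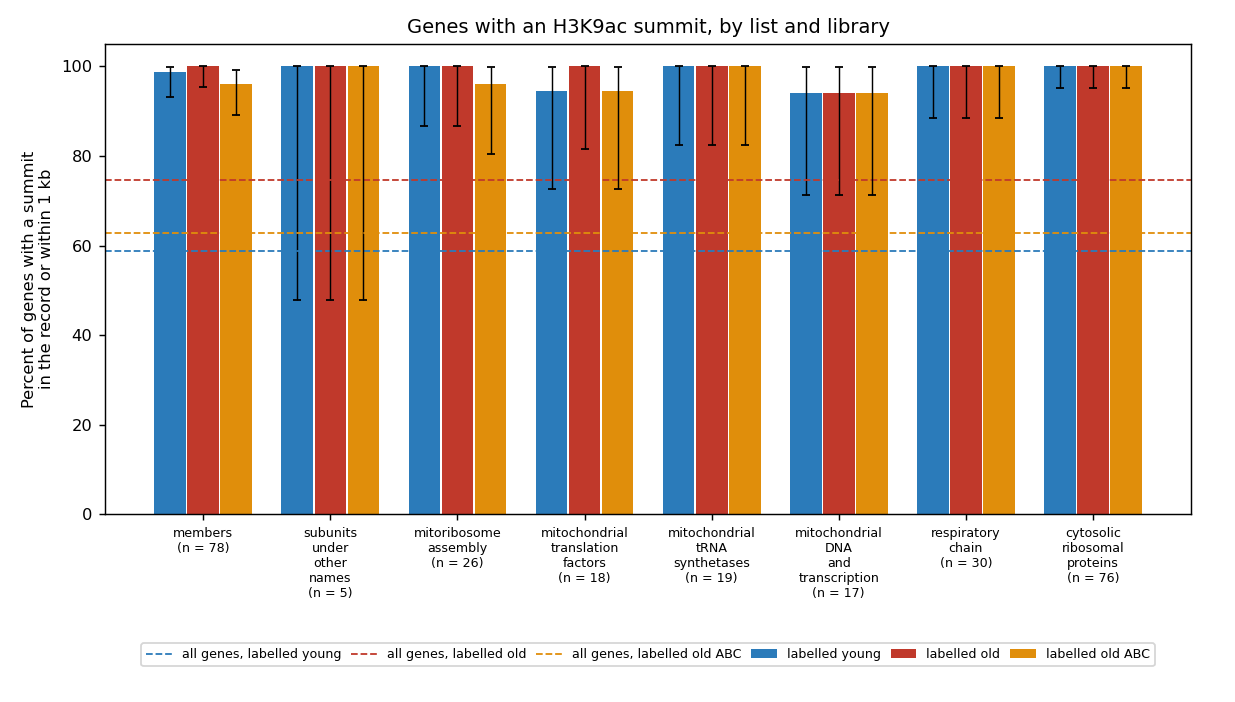
Percent of genes with a summit in the record or within 1 kb (y axis) for the 78 members and 7 other gene lists (x axis, with the number of genes), 1 bar per library, with exact 95% Clopper-Pearson intervals as error bars and dashed lines at the share of all 21631 records. Every bar is at 94.1% or above, over the dashed lines at 58.9%, 74.6% and 62.9%.

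Only 3 members lacked a summit in any library. Mrpl38, a large subunit protein (chromosome 11, 116131817 to 116138868), had 1 summit in the old-labelled list, 48 bp from a record end with a score of 12, while that record had its nearest summit at 1530 bp in the young- and at 2378 bp in the ABC-labelled list. Mrps16, a small subunit protein (chromosome 14, 20391222 to 20393634), scored 3.80 and 15.0 in the young- and old-labelled lists and had its nearest ABC-labelled summit at 3685 bp. Its summits also fell in the window of the neighbour Cfap70. Mrpl54, a protein of the stalk region (chromosome 10, 81264722 to 81266926), had a summit at the same base, 81266627, in the young- and old-labelled lists (scores 10.8 and 12.2), shared with Apba3, and the nearest ABC-labelled summit was 1282 bp away. At the other edge of the window, the best ABC-labelled summit of Mrpl58 lay 760 bp beyond its record and counted.

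The comparison of old with young cells asks what age does to the mark. A single member, Mrpl38, had a summit in the old-labelled library alone of this pair (1 of 78), and none the other way, while 16.1% and 0.407% of all records differed in these directions. In equal-length lists, which hold the 33248 highest-scoring summits of each library, the counts were again 1 and 0, against 6.18% and 3.67% of all records. The equal-length lists marked 77, 78 and 74 members, 58.9%, 61.4% and 58.5% of all records, and 74 members against 51.8% in all 3. No member lacked a young-labelled summit within 5 kb of its record. The members' shares were below the background in both directions, in a family that was marked nearly throughout. At a score of at least 10 the counts were 24 (30.8%) and 0, against 24.5% and 0.12% of all records, and with summits of 1 record they were 5 and 0, against 17.8% and 0.633%. A fixed score does not limit the lists alike, since the median best score over all marked genes was 9.24, 18.2 and 7.92.

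The comparison of old ABC with old cells asks what the ABC label adds. Mrpl38, Mrpl54 and Mrps16 had a summit in the old-labelled library and lacked one in the ABC-labelled library (3 of 78), and none showed the reverse, against 12.4% and 0.693% of all records. Equal-length lists gave 4 and 0, against 6.73% and 3.85%, with Mrpl52 added, whose ABC-labelled score of 2.22 was under the lowest score of that equal-length list (2.84). At a score of at least 10 the counts were 29 (37.2%) and 0, against 27.5% and 0.0878%, and with summits of 1 record 7 and 2, against 13.4% and 0.994%. Between the young- and ABC-labelled lists 2 members, Mrpl54 and Mrps16, were marked in the young-labelled one alone and none in the ABC-labelled one alone, against 3.66% and 7.66% of all records. The counts for that pair were 3 and 0 in equal-length lists (5.6% and 5.23% of all records), 8 and 3 at a score of at least 10 (7.08% and 3.99%), and 3 and 3 with summits of 1 record (3.91% and 8.6%). The old-labelled library serves in 2 of these contrasts.

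Strength was described by ranks inside each list. The best summits of the members had median scores of 13.3, 34.0 and 12.9, with ranges of 2.15 to 44.7, 8.69 to 104 and 2.22 to 55.0. Medians over all marked genes were 9.24, 18.2 and 7.92. In equal-length lists the members' best summits lay at a median of 11.6%, 10.9% and 10.2% from the top, compared with 20.4%, 20.2% and 21.7% for all genes. When genes were ranked by their best summit, the median member had rank 3966, 3749.5 and 3431, and the median marked gene 6367.5, 8065 and 6800. The top 10% of all genes held 24, 28 and 29 of the 78 members (30.8%, 35.9% and 37.2%), and the top 5% held 17, 22 and 19.

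The order of the members was similar in the 3 libraries. Over the 77 members marked in both, Spearman's rho of the best scores was 0.88 between the young- and old-labelled lists, and over 75 members it was 0.87 between young and ABC and 0.89 between old and ABC. The corresponding values across all genes marked in both were 0.85, 0.79 and 0.83. These are descriptions across genes, which are not independent replicates and share library, gene neighbourhood and base composition. By gene rank 48 of 77 members stood nearer the top in the old-labelled than in the young-labelled list (62.3%, against 45.9% of all genes marked in both). The ABC-labelled position was nearer the top than the young-labelled one for 43 of 75 (57.3%, against 48.5%). Compared with the old-labelled list 35 of 75 stood nearer the top in the ABC-labelled one (46.7%, against 54.1%).

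**Figure D2:**
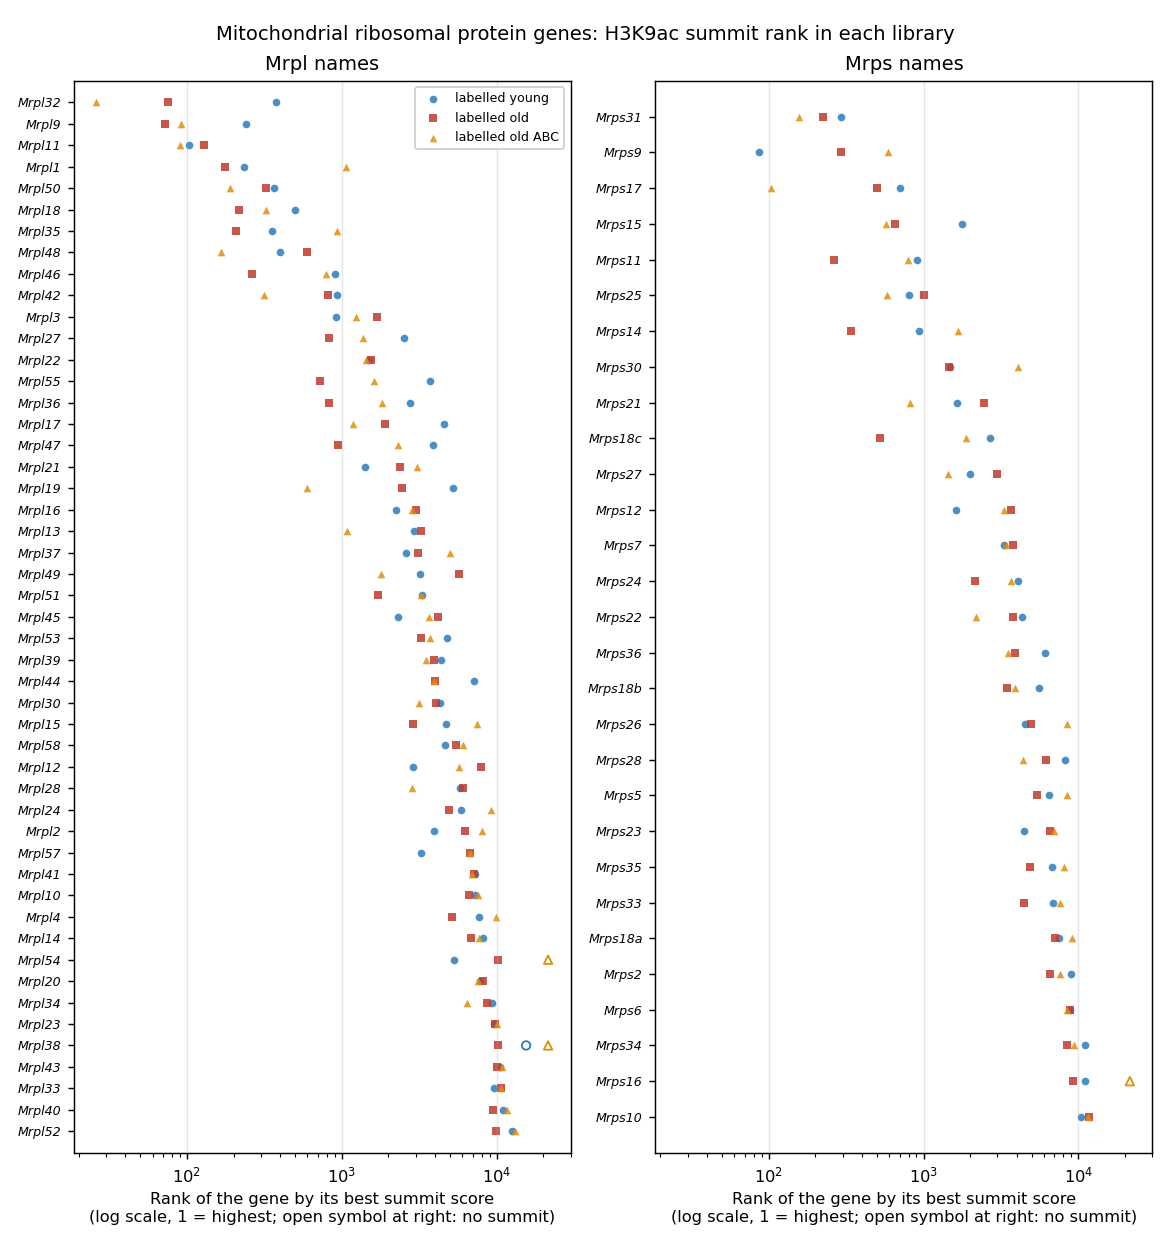
Rank of each member among all genes by its best summit score (x axis, log scale, 1 = highest) for Mrpl names (left) and Mrps names (right), with 1 symbol per library and open symbols for a library without a summit. Ranks run from 26 (Mrpl32, ABC-labelled) to 13224 (Mrpl52, ABC-labelled), and the 4 open symbols belong to Mrpl38, Mrpl54 and Mrps16.

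Among the strongest members, Mrpl11, the large subunit protein at the base of the stalk, scored 42.4, 92.5 and 41.1. Its gene ranks were 103, 128 and 90, and the summit lay at the same base in all 3, 180 bp before the start (chromosome 19, 4962126). Mrpl9, a large subunit protein with a bacterial counterpart, scored 35.6, 104 and 40.8, with gene ranks of 240, 72 and 92. Mrps31, a small subunit protein specific to mitochondria, scored 33.8, 82.0 and 36.5 and had its summits 95, 100 and 65 bp after the start. These genes were picked for a high position in all 3 lists.

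Mrpl32, a large subunit protein that is cut by a protease inside mitochondria before it joins the ribosome, scored 31.9, 102 and 55.0. Its gene ranks of 378, 75 and 26 put it highest in the ABC-labelled list. The summits lay 329, 412 and 415 bp before its start, beyond the stretch printed above and inside the record window of Psma2, so they cannot be given to Mrpl32 alone. Mrps17, a small subunit protein with a bacterial counterpart, stood at ranks 708, 501 and 104 (scores 26.7, 67.9 and 39.5). Mrps9 (44.7, 77.1 and 25.3) went the other way, with ranks of 86, 295 and 592. The other members among the 10 with the lowest worst position in the deposited lists were Mrpl18, Mrpl35, Mrpl48 and Mrpl50.

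Mrpl48 (chromosome 7, 100545779 to 100608301) had the most summits of any member that held at least 3 in each list, with 5, 10 and 8. Its best summit changed place: in the young-labelled list it lay 352 bp before the outermost start, next to Rab6a (score 31.3), and in the old- and ABC-labelled lists it lay at 100582905 (64.5 and 35.6). That position is 225 bp after an internal RefSeq start of Mrpl48 and 25748 bp from the young-labelled one. Mrps27, which holds a repeat fold typical of RNA-binding proteins of organelles, had 4, 10 and 3 summits, and its best one lay at the same base in all lists, 101 bp before the start and shared with Ptcd2.

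At the weak end Mrpl52 (chromosome 14, 54426909 to 54429750) scored 2.15, 12.9 and 2.22, with gene ranks of 12490, 9950 and 13224. Its young- and old-labelled summits lay 501 and 493 bp before the start and the ABC-labelled one 103 bp after it. Mrpl40, which belongs to the central protuberance of the large subunit, scored 3.88, 14.1 and 3.75, Mrps34 3.85, 17.1 and 5.44, and Mrpl43 4.28, 12.4 and 4.27. Mrps10 scored 4.34, 8.69 and 3.85, the lowest old-labelled value of the family, and its ABC-labelled summit lay 10986 bp after the start, near the far end of the record. These 5 genes had the highest worst list position of the members marked in all 3 lists. They were not all low in the old-labelled list, where Mrps34 stood near the median marked gene (18.2) and Mrpl33 (11.1) scored below Mrpl40, Mrpl43, Mrpl52 and Mrps34.

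Among members present in all 3 equal-length lists, the widest spread of position was found for Mrpl40 (39.3 percentage points), Mrpl4 (33.5), Mrps34 (30.5), Mrpl24 (26.9) and Mrpl43 (21.9). Mrpl24, a tunnel-exit protein, scored 9.93, 29.2 and 5.58, and Mrpl4 scored 7.40, 28.0 and 5.03. In all 5 the old-labelled position was nearest to the top. Of the members absent from the ABC-labelled equal-length list, Mrpl52 stood at 92.3% (young) and 38.0% (old), and Mrps16 at 59.5% and 32.5%. Mrpl54 went the other way, at 16.3% (young) and 40.3% (old), and Mrpl38 was in the old-labelled list alone, at 40.8%. With 1 library each, the spread cannot be told apart from that between libraries of 1 group.

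Genes of both subunits were marked nearly throughout. Mrpl names were marked in 48, 49 and 47 of 49 cases and Mrps names in 29, 29 and 28 of 29. Median gene ranks were 3791, 3257 and 3134 for Mrpl and 4333, 3802 and 3607 for Mrps names. A few names are historical: Mrps30 and Mrps18a encode proteins of the large subunit, and Mrps36 is now known as a component of the 2-oxoglutarate dehydrogenase complex. With genes placed by subunit and Mrps36 left out, 51 large and 26 small subunit genes had median ranks of 3791, 3257 and 3237 and of 4208, 3749.5 and 3431. Mrps30 itself scored 20.9, 50.3 and 11.7, and Mrps36 scored 9.56, 33.5 and 12.7.

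The stalk recruits the translation factors. Of its 5 genes Mrpl11 was by far the highest, followed in the old-labelled list by Mrpl53 (11.7, 36.6 and 12.4), Mrpl10 (8.05, 22.7 and 7.15), Mrpl12 (15.8, 18.8 and 9.21) and Mrpl54. Apart from Mrpl11, their best summits also fell in the window of a neighbour (Ccdc142, Lrrc46, Hgs and Apba3, in that order). These scores therefore cannot be given to the stalk genes alone. Mrpl12, which carries the flexible factor-binding arm, stood below Mrpl10 and Mrpl53 in the old-labelled list and above both in the young-labelled one. The tunnel exit, where new proteins leave towards the inner membrane, was marked in all 5 of its genes in all lists. Mrpl45, which tethers the ribosome to that membrane, scored 17.6, 32.1 and 12.5, Mrpl22 20.9, 49.6 and 19, and Mrpl47 13.5, 57.8 and 15.8. Mrpl23 was low (5.29, 13.4 and 4.88).

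The decoding site protein Mrps12 scored 20.3, 34.2 and 13.2, with a summit 22 or 23 bp after its start in all lists, shared with Sars2, the mitochondrial seryl-tRNA synthetase gene. The 3 descendants of bacterial protein S18 differed: Mrps18c scored 16.4, 66.9 and 17.1 at the same base in all lists, Mrps18b 10.4, 35.6 and 12, and Mrps18a 7.74, 21.4 and 5.78. The order of their gene ranks was the same in each library. Mrpl44, related to RNA-cutting enzymes, scored 8.23, 32.9 and 11.9. Mrpl58, a peptidyl-tRNA hydrolase built into the large subunit that frees stalled chains, scored 11.9, 26.7 and 8.81. Its young-labelled summit lay 40 bp after the start, but the best old- and ABC-labelled ones lay 9728 and 9682 bp after it, past the far end of the record.

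A list of 13 members in which human variants cause respiratory chain deficiency was marked in 13, 13 and 12 cases, Mrps16 being the exception in the ABC-labelled list. Its median gene ranks were 4434, 4897 and 4170.5. Mrps14 and Mrps25, both of the small subunit, were its highest members in the old-labelled list (24.7, 75.1 and 17.9 for Mrps14, and 25.7, 56.8 and 25.4 for Mrps25). Mrps16 scored lowest in the young- and old-labelled lists.

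Summits of the family stood close to the start site. For members with a promoter entry the best summit had a median position 95 bp after the nearest annotated start in the young-labelled list (quartiles -60 and 244, n = 69), 96 bp in the old-labelled (-95 and 249, n = 69) and 207 bp in the ABC-labelled list (2.5 and 332, n = 68). Within 500 bp of a start lay 84.1%, 89.9% and 85.3% of them, against 49.0%, 49.6% and 45.5% for all genes, whose median positions were 400, 379 and 448 bp. Within 1 kb the counts were 68 of 69, 68 of 69 and 64 of 68. The exceptions were Mrpl20 in the young-labelled list (1109 bp), Mrpl58 in the old-labelled list, and Mrpl23 (1918 bp), Mrpl58, Mrps5 (13719 bp) and Mrps10 in the ABC-labelled list. All genes include many longer records, in which a best summit has more room to lie far from a start.

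**Figure D3:**
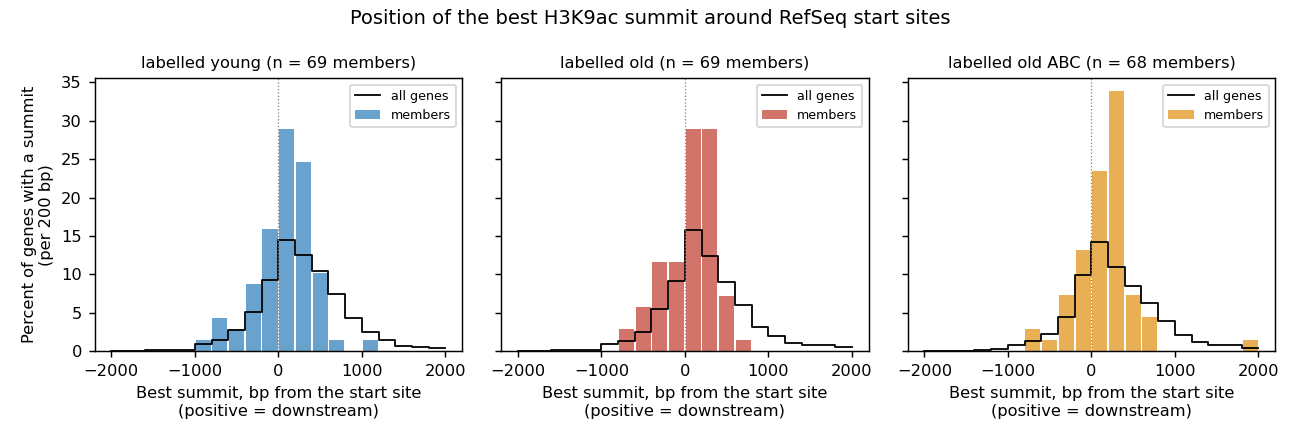
Position of the best summit relative to the nearest RefSeq start site (x axis, bp, positive is downstream) as percent of genes with a summit, in bins of 200 bp, for members (bars) and all genes (line) in each library. The members' bars are highest within the 400 bp after the start, and positions beyond 2000 bp are not drawn.

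A start inside the record was seen in members without an end summit. Mrps2, Mrpl18, Mrpl22 and Mrpl24 had no summit within 1 kb of a record end in any library, and their promoter entry lies inside a longer record. Measured from that start, the summits of Mrpl22 were at 16, 56 and 56 bp. Those of Mrpl18 were at 39, 63 and 56 bp, those of Mrps2 at 217, 184 and 247 bp, and those of Mrpl24 at 377, 331 and 327 bp. Mrpl18, a central protuberance protein paired with the chaperonin gene Tcp1, was among the strongest members (29.4, 82.2 and 30.5).

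The libraries placed the best summit at nearly the same site. It lay within 500 bp in both lists for 71 of 77 members between young and old, 63 of 75 between young and ABC and 66 of 75 between old and ABC, with median distances of 35, 64 and 36 bp. For all genes marked in both, the shares within 500 bp were 74.5%, 70.4% and 70.2%, against 92.2%, 84.0% and 88.0% of members. Members have shorter records (median 7690.5 against 17329 bp), which leave a best summit less room to change place. The part of record length in these shares was not tested. Apart from Mrpl48, Mrpl58, Mrps5 and Mrps10, already described, the members whose best summits were over 1 kb apart in some pair were Mrpl23, Mrpl41, Mrpl43 and Mrpl49. The best summit of Mrpl49 lay 757 bp before its start in the young-labelled list and 249 bp after it in the other pair, and its divergent partner Fau encodes a cytosolic ribosomal protein.

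Divergent members differed from the others in the median signed position of the summit. In the 24 divergent members it was -21 bp in the young- and old-labelled lists and 68.5 bp in the ABC-labelled list. These medians fall between summits on both sides of the start, in the young-labelled list from -957 bp (Mrpl41) to 253 bp (Mrpl21). Some lay past the start of the partner, such as that of Mrpl2 at -604 bp, with 141 bp between the starts. The median therefore does not give the usual distance from the start. In the other members with a promoter entry the median position was 193 (n = 45), 195 (n = 45) and 215.5 bp (n = 44). Across all genes the medians were 0, -13 and 21 bp for divergent genes and 464, 441 and 547.5 bp for the rest, so the shift was shared by divergent genes in general. Divergent members were marked in 24 of 24 cases in each list, and 92.8%, 97.9% and 93.5% of all divergent genes were. Median gene ranks were 3211.5, 3280.5 and 3185.5 for divergent members and 4333, 3802 and 3515.5 for the others.

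At the shared start of Mrps11 and Mrpl46, where 41 bases separate the starts, a single summit served both genes in each library. It scored 24.8, 79.0 and 23.0 and lay 9, 181 and 167 bp after the start of Mrps11, which places it 51, 223 and 209 bp before that of Mrpl46. Partners of other members not yet named were Twnk, the mitochondrial DNA helicase gene, with Mrpl43, Ndufb5, a complex I subunit gene, with Mrpl47, Eme1 with Mrpl27, Helq with Mrps18c, Ighmbp2 with Mrpl21, Ncapd2 with Mrpl51, Mitd1 with Mrpl30, Ska3 with Mrpl57 and Cyb5rl with Mrpl37. The rest were Tmem63b with Mrpl14, Klc4 with Mrpl2, Gga3 with Mrps7, Zfp661 with Mrps5, Ppp1r10 with Mrps18b and Pnpla7 with Mrpl41.

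**Figure D4:**
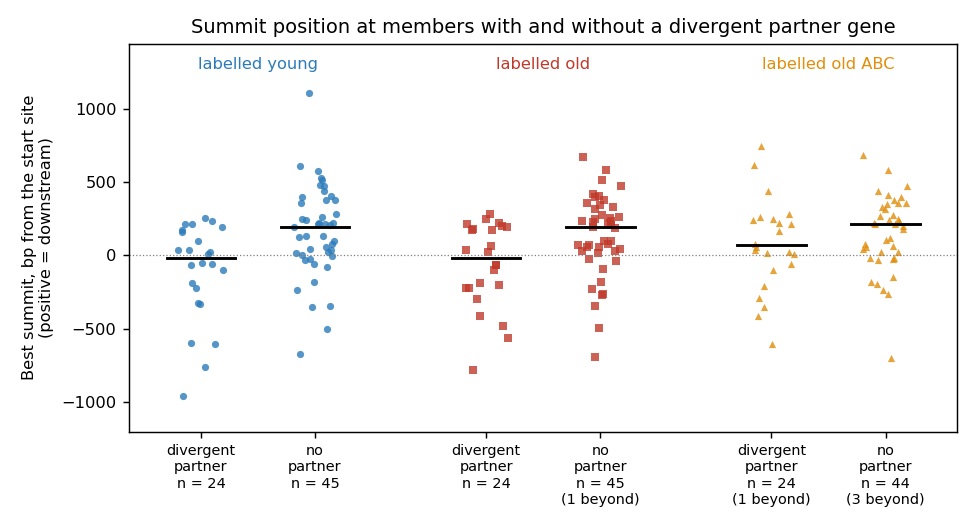
Position of the best summit relative to the nearest RefSeq start (y axis, bp, positive is downstream) for members with and without a divergent partner gene within 1 kb, in each library, with 1 symbol per gene and a black line at the median. The medians of divergent members are -21, -21 and 68.5 bp and those of the others 193, 195 and 215.5 bp, and points beyond the axis are counted under the group.

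The promoters, taken as 250 bases before to 50 after the start, were rich in CpG. The 75 entries of the 69 members held a median of 21 CpG dinucleotides (5 to 43) and 58.7% G and C, against 13 and 56.7% in all 21045 entries of protein-coding genes. Exact matches on both strands were counted for 5 motifs. The ETS family letters CCGGAAGT, bound by GABPA among others, were found in 12 of 69 members (17.4%) and 5.20% of all promoters. The palindromic NRF1 core, in capitals in the stretches of Mrpl32 and Mrpl39 above, was found in 3 members, with Mrpl9 (4.35%, against 1.34%), and the YY1 letters AAGATGGCG in 8 (11.6%, against 1.84%). CCAAT, bound by NF-Y, was found in 27 (39.1%, against 38.5%) and the TATA box letters TATAAA in 5 (7.25%, against 12.7%). No motif searched holds another. Members were counted once each, with a match in any of their entries, while the shares of all promoters count single entries. The 2 shares are therefore not in the same unit. Mrpl48, Mrps16 and Mrpl2 have more than 1 entry, which gives them more chances of a match, and the ETS match of Mrpl48 is at an internal start. A match describes letters and not a bound factor.

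Median gene ranks of the 12 members with the ETS letters were 3000, 2358 and 2027.5, against 3715, 3697 and 3463.5 for the other members with an entry. Those of the 8 with the YY1 letters were 2296.5, 1491 and 1632, against 3867, 3803 and 3371. The 5 with the letters TATAAA had 909, 595 and 796, against 3791, 3802.5 and 3431, although these letters were less frequent in members than in all promoters. Their TATAAA matches began between -190 and -68 bp from a start, that of Mrpl48 at an internal one, and were not shown to act as TATA boxes. For CCAAT the medians were 2596, 3122 and 3067.5 with it and 3791, 3802.5 and 3334 without. The ETS group held strong members, such as Mrpl18 and Mrpl48, and weak ones, such as Mrpl43 and Mrpl52, whose match lies outside the stretch printed. Of the NRF1 members Mrpl9 and Mrpl32 were among the strongest, and Mrpl39 scored 12.5, 33.1 and 12.8. These groups are small and overlap, and no difference was tested.

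Genes that work with the mitochondrial ribosome were marked as widely. Of 5 subunit genes that carry other names, all were marked in all lists, and Dap3, a small subunit protein first described in cell death, was the strongest (53.3, 112 and 33.6, with gene ranks of 30, 45 and 217). Assembly factors were marked in 26, 26 and 25 of 26 cases, with Gtpbp6, a GTPase that acts on the large subunit, lacking an ABC-labelled summit. Eral1, a chaperone of the small subunit RNA, was high among them (29.2, 56.7 and 33.9) and Mpv17l2 low (2.46, 7.28 and 2.44). Translation factors were marked in 17, 18 and 17 of 18 cases. Among them Oxa1l, which inserts new proteins into the inner membrane, scored 28.1, 86.4 and 19.1. All 19 tRNA synthetase genes of mitochondria were marked in each list, and Lars2, which charges the leucine tRNA, scored 32.6, 81.1 and 22.

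Genes of mitochondrial DNA upkeep and transcription, with their nuclear regulators, were marked in 16 of 17 cases in each list. Polrmt, the mitochondrial RNA polymerase, had a summit in the ABC-labelled list alone (2.54), and Mgme1, a nuclease, had none there. Tfam, which packages mitochondrial DNA, scored 2.14, 20.2 and 3.96. It was weak in the young- and ABC-labelled lists but above the median marked gene (18.2) in the old-labelled one. Of the nuclear regulators listed, Gabpb1, a partner of GABPA, scored highest in each list (23.6, 59.5 and 20.8). Nrf1 scored 17.9, 30.8 and 9.39, and Yy1 7.79, 23 and 3.93. All 30 listed respiratory chain genes, which are a selection, and all 76 cytosolic ribosomal protein genes were marked in each library. Their median gene ranks were 2987, 2329 and 2344.5 for the listed respiratory chain genes and 2157.5, 2994 and 2334 for the cytosolic ribosome. Each was nearer the top than the 3966, 3749.5 and 3431 of the mitochondrial ribosome. For the respiratory chain this holds for the genes listed only. Mitoribosome assembly genes stood lower in rank, at 5919.5, 4207 and 6100. Members of such widely used gene groups were marked nearly throughout, so a count of marked genes separates none of these lists from the others.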

How the data were processed

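Reads were processed by the authors on mm10 with tools that include BWA, Picard, MACS2 and edgeR, per the submitters' processing notes. Roles, settings and control libraries were not stated there. Each deposited list holds 1 bp summits with a score for 1 library, so peaks were taken as called per sample. The deposited score was read as a −log10 q-value because each list starts at 1.30, the −log10 of 0.05. Depth is unknown.

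Gene records came from the RefSeq table of GRCm38.p6 (49997 records), and starts and sequences from its promoter table. Pseudogenes (6 Mrpl or Mrps records) were left out. Summits were assigned with Python 3.11.15, pandas 2.3.3 and numpy 2.4.6, and intervals were computed with scipy 1.17.1. The assignment was tested on simulated data. Of 191 entries of the other gene lists, 190 were matched. A gene of these lists is not reported here.

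With 1 library per group no test was run. Genes named are those lacking a summit in a library, the 10 with the lowest and 5 with the highest worst list position, the 5 with the widest spread, those with 3 or more summits in every list and 18 fixed for their role. Others were chosen after their values were seen. Members and lists were chosen with earlier results of these data known. Gene ranks, start-site distances and divergent pairs were added after seeing the files.

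The alternatives were a lowest score of 5 or 10, lists of equal length, merged summits, windows of 500 bp and 2 kb, summits of 1 record only, absence within 5 kb, end summits only and other limits for a shared position.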

Additional observations from a re-analysis of the deposited data

How the results depend on the processing

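Of 135 values recomputed under the alternatives, 102 stayed within 1.5 times the value reported and 33 did not. With summits of 1 record only, marked members were 48 (young), 53 (old) and 48 (ABC), and end-marked ones 36, 40 and 35 (31%, 44.5% and 32.6% of all records). A score of at least 10 left 48 members marked and 45 end-marked in the ABC-labelled list (23.8% and 18.2% of all records). Members marked in the old- but not the young-labelled list numbered 7 at a score of at least 5 (19.4% of all records), 24 at 10 (24.5%), 3 with a window of 500 bp (16.1%), 0 with 2 kb (16%) or with absence within 5 kb (13.1%), and 5 with summits of 1 record (17.8%). For old but not ABC the values were 9 at a score of at least 5 (19.2%), 29 at 10 (27.5%), 5 with 500 bp (12.4%), 7 with 1 record (13.4%) and 0 within 5 kb (9.36%). For young but not ABC they were 8 at a score of at least 10 (7.08%) and 0 within 5 kb (2.62%). For ABC but not young they were 1 and 3 at scores of at least 5 and 10 (5.99% and 3.99%), 1 with 500 bp (7.76%) and 3 with 1 record (8.6%). For ABC but not old they were 1 with 500 bp (0.865%) and 2 with 1 record (0.994%), and for young but not old 1 with 500 bp (0.536%). The median list position of the old-labelled members was 3.32% as deposited and 10.9% in the equal-length list, by construction. With end summits only, tunnel-exit genes were marked in 2 of 5 cases in each list, and mitochondrial DNA and transcription genes in 10 of 17 in the young- and ABC-labelled lists. The causes of these changes were not tested except where given. No paired analysis was possible because each group has 1 library.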
